A study of Mus musculus with 8 samples.

Results

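Fatty acid oxidation was followed here through 35 genes, chosen by name as a list of mitochondrial and peroxisomal oxidation genes and found in the count tables of every library among 24421 gene symbols. Of these 35 members, 34 had enough counts to be tested. Ppara, with 2 to 10 counts per library, was not. Libraries came from primary macrophages of mice in 3 groups, all labelled as on a normal diet: wild type (WT, n = 3), the genotype LysM-DKO (n = 3) and the genotype ABCG1KO (n = 2). The study's design text lists an Epsin-DKO where the samples are labelled LysM-DKO, and these were taken to be the same group. Epsins are endocytic adaptor proteins, and ABCG1 is a transporter that exports cholesterol. LysM is the older name of lysozyme (Lyz2), whose promoter is widely used to drive Cre in myeloid cells. The labels state neither that nor the tissue the macrophages came from, the strain, age or sex of the mice, whether loss of ABCG1 was limited to macrophages, or whether libraries came from separate mice. The p-values therefore measure only the spread between these libraries, which may be technical.

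Fatty acids are burned in the mitochondrial matrix by a cycle of oxidation, hydration, oxidation and cleavage, each turn releasing acetyl-CoA. Long chains enter through the carnitine shuttle, and electrons from the cycle reach the respiratory chain through the electron transfer flavoprotein. Peroxisomes shorten very long and branched chains, and in macrophages the pathway handles fatty acids taken up with lipoproteins and dying cells, under the control of PPAR nuclear receptors.

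Libraries held between 29567615 and 41888516 counts in genes. Epn1 was at 191 to 230 CPM (counts scaled to library size) in WT and at 155 to 183 CPM in the libraries labelled LysM-DKO, and Epn2 at 4.97 to 8.86 and 5.67 to 13.2 CPM, so most of both transcripts remained and every direction given for LysM-DKO rests on that label. Counts over whole genes do not show the loss of single exons. Abcg1 was at 345 to 405 CPM in WT and at 60.4 and 73.4 CPM in ABCG1KO. The ABCG1KO libraries stood apart in several ways that touch every comparison with them. Of all reads listed by the counter, those assigned to no annotated feature were 10.2% and 13.8% there, against 4.26% to 6.07% elsewhere. Reads aligned to several places were 6.74% and 6.93%, against 2.65% to 3.01%. Reads that fitted more than 1 gene were lower, at 0.614% and 0.665%, against 0.873% to 0.980%. Both carried the Y-linked transcript Ddx3y (92.5 and 94.8 CPM) and no Xist count, while all WT libraries had Xist, and genotype and sex cannot be told apart there; LysM-DKO 1 had the male pattern as well. Summed markers of macrophages were 18291 to 21534 CPM in WT, 11592 to 13747 in LysM-DKO and 18440 to 21978 in ABCG1KO. The list of 8 includes Lyz2. In LysM-DKO, 1 of the 8 lay below WT without overlap, beside 9.98% of all genes, and 0 above, beside 11%. Their median log2 fold change there was -0.09, with 2 above 0, so the lower sum was not shared by all 8. All 6 markers of resident peritoneal macrophages were higher in ABCG1KO, where they summed to 258 and 1538 CPM against 3.2 to 34.8 CPM in the other libraries. All 6 lay above WT without overlap, beside 23.9% of all genes, and 3 were called higher, beside 7.21%. Monocyte markers summed to 44.0 and 159 CPM against 2.3 to 14 CPM. In ABCG1KO, 2 of the 5 lay above WT without overlap (23.9% of all genes did). Mast cell markers summed to 6.84 and 32.2 CPM against at most 2.57 CPM. The 6 adipocyte markers summed to at most 0.251 CPM in any library. Of these, 3 were at 0 in every library, Plin1 and Lep among them. Fibroblast markers summed to 753 to 911 CPM in WT, 678 to 1662 in LysM-DKO, and 160 and 1184 in ABCG1KO. The sums of mesothelial markers were 7.84 to 39.9, 5.06 to 73.1, and 6.21 and 26.2 CPM. In LysM-DKO the 6 B cell markers summed to 0.0242 to 1.51 CPM, against 3.13 to 38.2 in WT, and all 6 had a log2 fold change below 0. All 8 cell cycle genes were below 0 there too, with sums of 22.1 to 74.4 CPM against 39.6 to 147 CPM in WT. Their part in the results below was not tested. In bulk RNA, fewer cells of a type and less RNA per cell cannot be told apart.

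Per kb of exon, the members spanned a wide range of levels. In WT, Ucp2, an inner-membrane carrier named for uncoupling, was highest at 130 CPM per kb. Acadl, the long-chain acyl-CoA dehydrogenase, followed at 67.7, the flavoprotein subunit Etfb at 50.7, the peroxisomal bifunctional enzyme Hsd17b4 at 48.4 and the thiolase Scp2 at 46.9 CPM per kb. At the low end were Ppargc1b (0.877), Acot1 (0.538), Pdk4 (0.0681) and Ppara (0.0264 CPM per kb). Ucp2 alone made up 27.2% to 30.2% of the summed CPM of the members in WT, 25.1% to 31.7% in LysM-DKO, and 46.4% and 45.1% in ABCG1KO. Within a group, libraries were close for most members. The median coefficient of variation was 12.8% over the 3 WT libraries and 14.4% over the 3 LysM-DKO libraries, where all tested genes had medians of 17.5% and 17.2%. Among the 34 tested members, Eci2 varied least in WT (1.17%) and Pdk4 most (67.2%). In LysM-DKO the extremes were Acaa1a (2.78%) and Acot1 (89.1%).

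**Figure D1:**
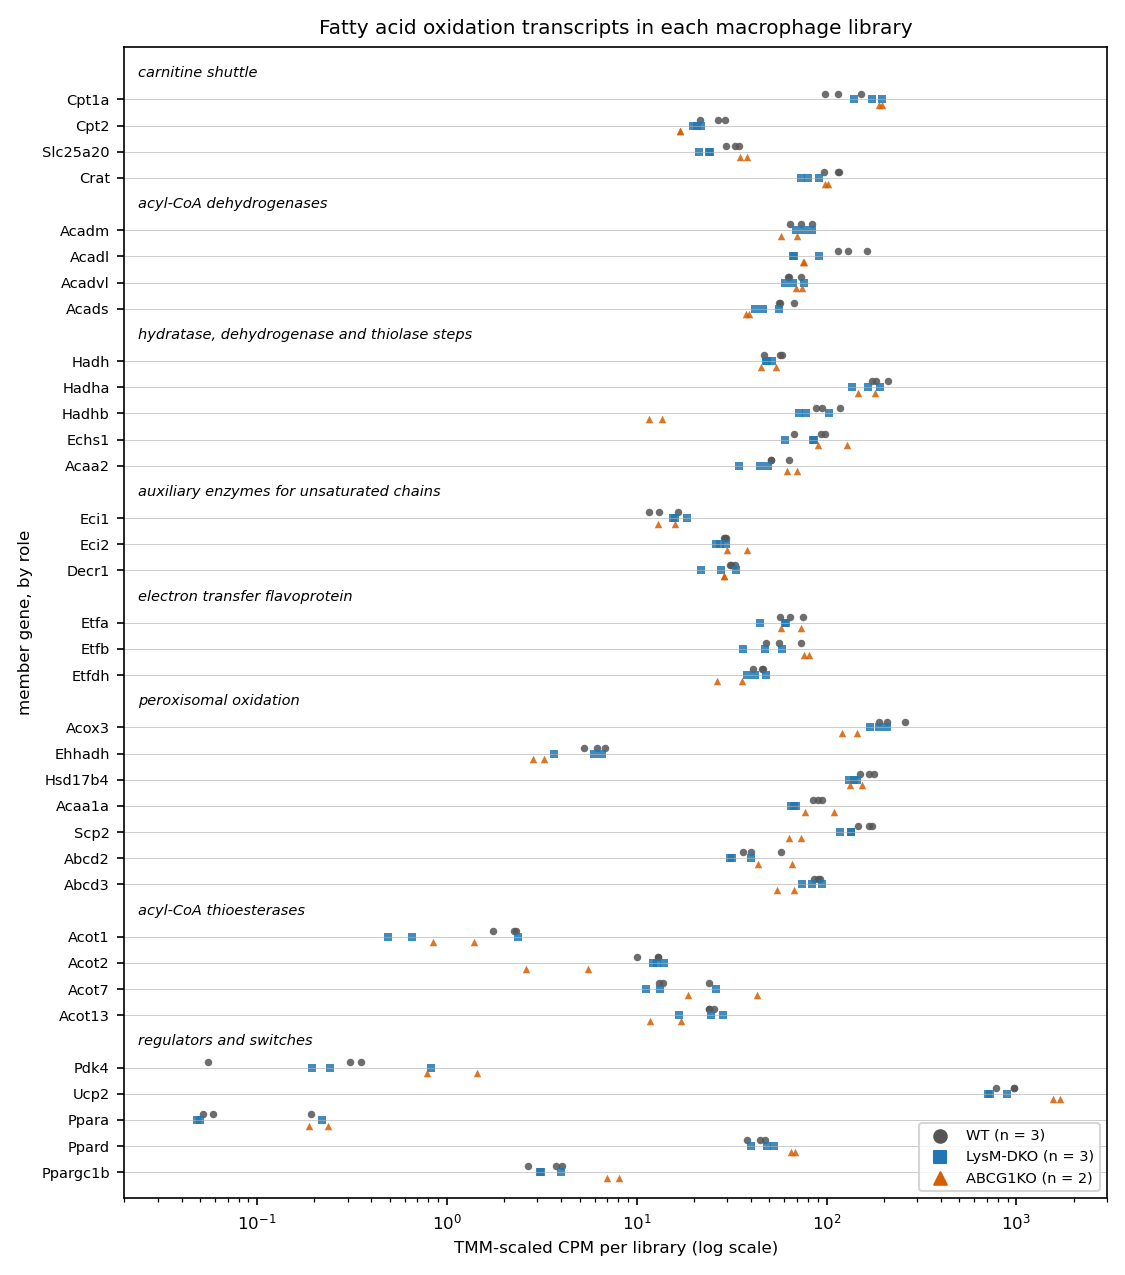
Level of each of the 35 members in each of the 8 libraries, in TMM-scaled CPM on a log axis, grouped by role; each point is 1 library. The ABCG1KO points of Hadhb (11.7 and 13.6 CPM) lie far below all others, and those of Ucp2 (1690 and 1567 CPM) above all others.

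LysM-DKO was set against WT first, the comparison that bears on epsins and lipid metabolism. No member was called, which is 0 of 34 tested beside 0.0362% of all 13821 genes tested (0.0217% higher and 0.0145% lower). Calls rest on the quasi-likelihood test of edgeR with a Benjamini-Hochberg adjusted p under 0.05 over these genes, and every edgeR adjusted p given here is from that procedure. DESeq2, run as an alternative, called 1, Acadl. At an unadjusted p under 0.05 there were 6 members, beside 11.7% of all genes, and 5 of these 6 were lower in LysM-DKO. Log2 fold changes were below 0 for 27 members and above 0 for 7. Their median was -0.20, beside 0.02 for all genes tested. In 8 members every LysM-DKO library lay below every WT library, beside 9.98% of all genes, and in 0 members above, beside 11%. With library size as the only scaling, the median of all genes moved to 0.17 and that of the members to -0.055, with 20 members below 0 and 14 above. Without LysM-DKO 1, the library with the male pattern, the members with an unadjusted p under 0.05 kept their directions, with log2 fold changes of 0.34 for Cpt1a, -0.52 for Slc25a20, -0.54 for Crat, -0.45 for Acaa1a and -0.39 for Scp2.

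ABCG1KO against WT gave 11 called members of 34, beside 16% of all genes tested. The 3 that rose were Ucp2, Ppard and Ppargc1b (7.21% of all genes rose). The 8 that fell were Hadhb, Scp2, Acot2, Acadl, Acads, Acox3, Cpt2 and Abcd3 (8.83% of all genes fell). The median log2 fold change was -0.12, beside 0.01 for all genes. With library size only, 8 were called, 4 in each direction, and the medians were 0.11 for the members and 0.25 for all genes. At an unadjusted p under 0.05 there were 16 members, beside 31.5% of all genes. Groups did not overlap for 21 members, beside 48.2% of all genes, with 8 above WT (23.9% of all genes) and 13 below (24.2%). The number of calls leaned on single libraries: it was 2 without ABCG1KO 1 (Hadhb and Scp2), 6 without ABCG1KO 2, 4 without WT 1, 3 without WT 2, 6 without WT 3 and 7 without LysM-DKO 2. Both comparisons use the same WT libraries.

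**Figure D2:**
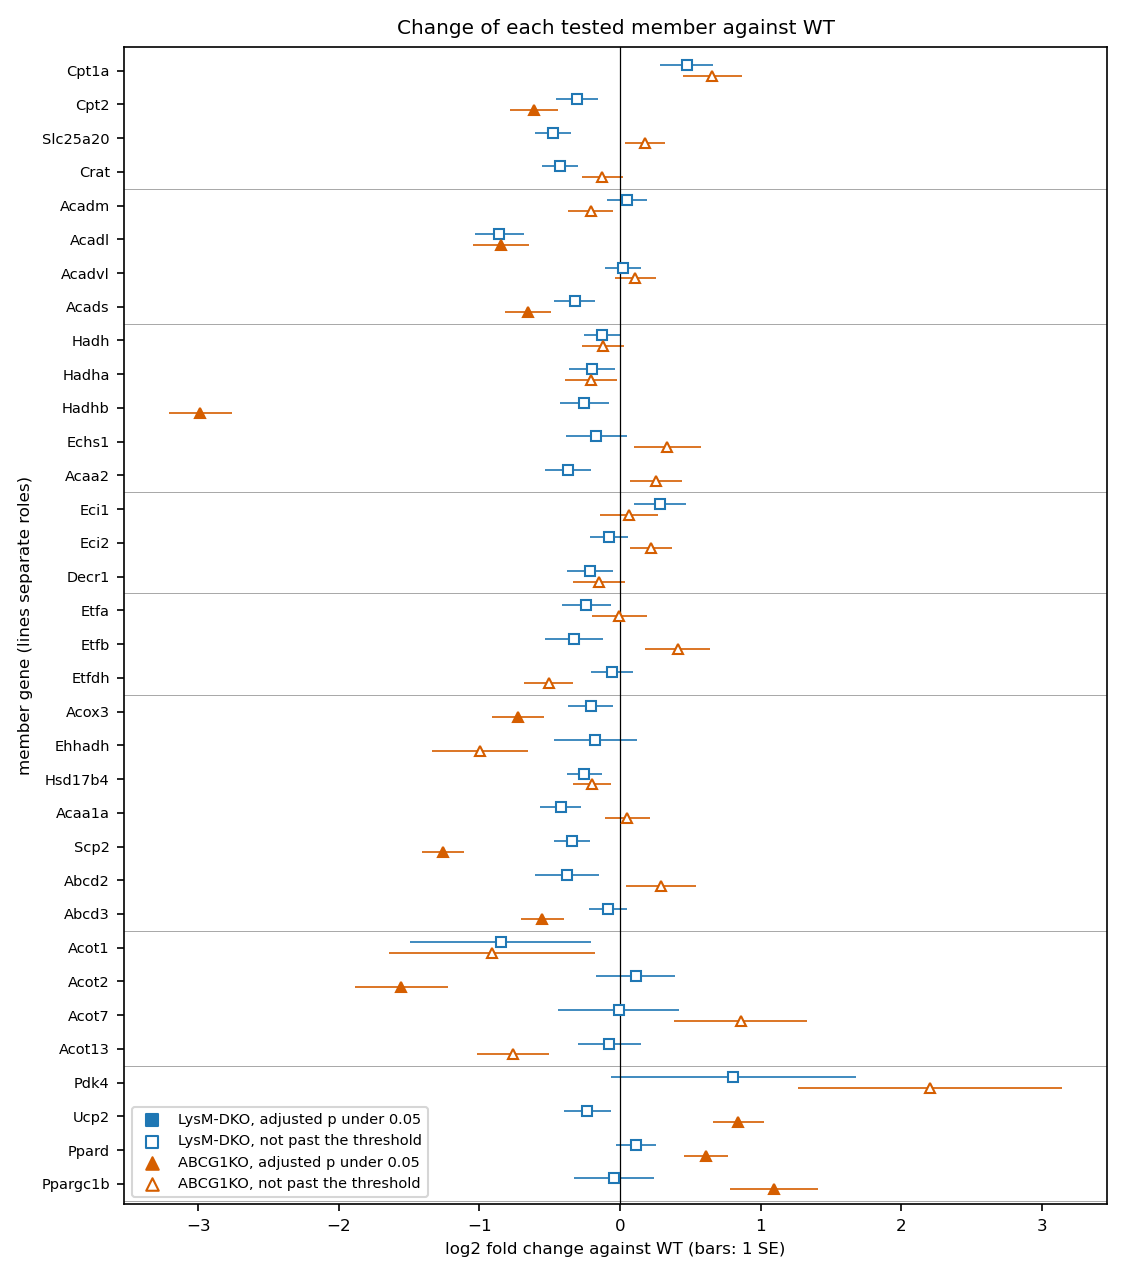
Log2 fold change against WT for each of the 34 tested members in LysM-DKO (squares) and ABCG1KO (triangles), with bars of 1 SE; filled symbols have an adjusted p under 0.05. None of the squares is filled, whereas 11 triangles are, of which Hadhb at -2.98 lies farthest from 0.

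The carnitine shuttle did not move as a unit. Cpt1a makes the acylcarnitine at the outer mitochondrial membrane and sets the pace of entry. It was at 98.5, 115 and 152 CPM in WT, at 196, 139 and 173 in LysM-DKO, and at 195 and 189 in ABCG1KO. LysM-DKO overlapped WT, with LysM-DKO 2 below WT 3, while both ABCG1KO libraries were above WT. Its log2 fold change was 0.47 in LysM-DKO (SE 0.191, unadjusted p 0.0364, edgeR adjusted p 0.408) and 0.66 in ABCG1KO (SE 0.210, adjusted p 0.0687), neither past the threshold.

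Slc25a20, the translocase that carries acylcarnitine across the inner membrane, lay the other way in LysM-DKO. It was at 34.4, 33.0 and 29.5 CPM in WT, at 24.1, 21.3 and 24.2 in LysM-DKO, and at 38.2 and 34.8 in ABCG1KO. LysM-DKO was thus lowest of the 3 groups with no overlap. Against WT the log2 fold change was -0.48 (SE 0.126, unadjusted p 0.00502, edgeR adjusted p 0.327), not past the threshold. Against ABCG1KO it was -0.65 (SE 0.139, edgeR adjusted p 0.0214), which passed. That call was lost without LysM-DKO 1, LysM-DKO 2 or ABCG1KO 1 (edgeR adjusted p 0.0557, 0.0689 and 0.129), with the replicate block (0.0594) and in the fit of both groups alone (0.0575).

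Cpt2, which turns acylcarnitine back into acyl-CoA in the matrix, was at 29.1, 26.9 and 21.5 CPM in WT, at 19.9, 21.9 and 20.9 in LysM-DKO, and at 16.8 and 17.0 in ABCG1KO. It was lowest in ABCG1KO, where it fell by 0.61 in log2 (SE 0.169, edgeR adjusted p 0.0436). Leaving out any library but WT 3 ended that call (edgeR adjusted p 0.0582 to 0.154), as did library size only, no filter on low counts, the replicate block and the fit of both groups alone. Crat, the acetyl-group transferase of the shuttle, was at 114, 116 and 96.8 CPM in WT and at 91.6, 72.9 and 79.4 in LysM-DKO, with all 3 LysM-DKO libraries below WT. The log2 fold change was -0.43 (SE 0.131, unadjusted p 0.0111, edgeR adjusted p 0.354) and did not pass. ABCG1KO, at 98.3 and 102 CPM, fell within the WT range.

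Acyl-CoA dehydrogenases carry out the oxidation that opens each turn, each for a range of chain lengths. The long-chain member Acadl was at 163, 130 and 114 CPM in WT, at 90.9, 66.6 and 67.3 in LysM-DKO, and at 75.6 and 75.5 in ABCG1KO. All libraries of both genotypes were below all WT libraries. In LysM-DKO the log2 fold change was -0.86 (SE 0.177, unadjusted p 0.00113), which is 55.2% of the WT level, and at an edgeR adjusted p of 0.224 it was not past the threshold, whereas DESeq2 gave an adjusted p of 0.00686. Without LysM-DKO 1 the log2 fold change was -1.04 (edgeR adjusted p 0.207). In ABCG1KO Acadl fell by 0.85 in log2 (SE 0.201, edgeR adjusted p 0.0266), to 55.7% of WT. This call was lost without WT 1, WT 2, ABCG1KO 1 or ABCG1KO 2 (edgeR adjusted p 0.0608, 0.0647, 0.123 and 0.0829). LysM-DKO and ABCG1KO differed by -0.01 (SE 0.196, edgeR adjusted p 0.975). No window of Acadl recurs in another gene.

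Acads, the short-chain dehydrogenase, was at 67.3, 56.9 and 56.5 CPM in WT, at 56.2, 41.9 and 46.4 in LysM-DKO, and at 39.1 and 37.5 in ABCG1KO. The order was WT, LysM-DKO, ABCG1KO with no overlap, with a narrow gap between LysM-DKO 1 and WT 3. It fell in ABCG1KO by 0.65 in log2 (SE 0.163, edgeR adjusted p 0.0313), a call lost without any WT or ABCG1KO library (0.0585 to 0.121), with library size only (0.0733) and with both groups alone (0.0502). Acadm, for medium chains, and Acadvl, for very long chains, did not follow. Acadm was at 64.5 to 84.0 CPM in WT, 69.4 to 84.0 in LysM-DKO, and 70.0 and 57.8 in ABCG1KO, and Acadvl at 62.4 to 73.2, 60.1 to 75.6, and 74.1 and 69.0 CPM. The ratio of Acadvl to Acadl counts was 0.449 to 0.545 in WT, 0.833 to 0.999 in LysM-DKO, and 0.980 and 0.914 in ABCG1KO, without overlap with WT. In the annotation, 42.9% of the exon length of Acadvl is overlapped by Dvl2 on the opposite strand, and without the strand setting their reads cannot be assigned with certainty.

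**Figure D3:**
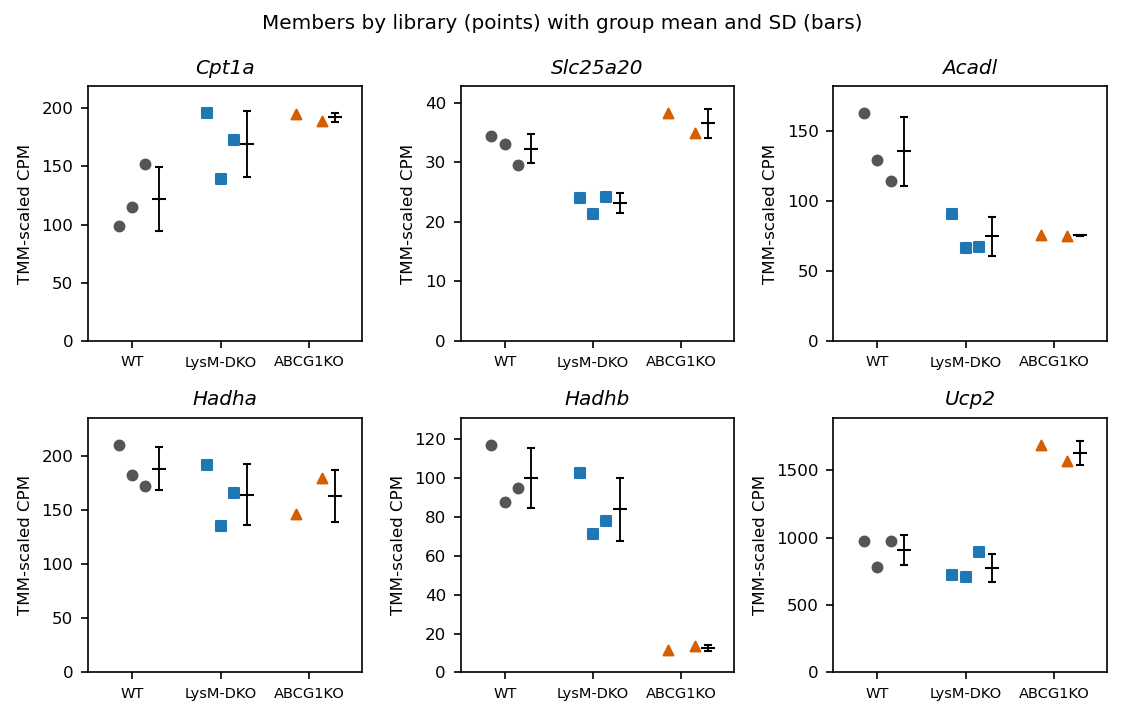
Levels of 6 members in TMM-scaled CPM by group; points are libraries, and the bar beside them gives the group mean and SD (n = 3, 3 and 2). Acadl is below WT in both genotypes, Slc25a20 is lowest in LysM-DKO, and Hadhb in ABCG1KO sits at 11.7 and 13.6 CPM while its partner Hadha stays between 136 and 211 CPM in all libraries.

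The mitochondrial trifunctional protein does the remaining steps for long chains and is built from an alpha subunit, Hadha, and a beta subunit with the thiolase activity, Hadhb. The 2 genes lie head to head on chromosome 5, Hadha on the minus strand (chr5:30118304-30155162, GRCm38) and Hadhb on the plus strand (chr5:30155248-30184593). RefSeq places the starts farther apart: the 250 bases before them are chr5:30154981-30155230 for Hadha and chr5:30155003-30155252 for Hadhb. Between the gene bounds given above, from GENCODE M21, are 85 bases, 69.4% of them G or C. They are shown because they separate the pair (chr5:30155163-30155247, GRCm38.p6, plus strand, bases from the RefSeq promoter sequence of Hadhb).
Hadha-Hadhb interval: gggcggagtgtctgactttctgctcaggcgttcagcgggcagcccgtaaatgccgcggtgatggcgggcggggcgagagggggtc

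Hadha was at 211, 183 and 172 CPM in WT, at 192, 136 and 166 in LysM-DKO, and at 147 and 180 in ABCG1KO, with overlap among all groups. Hadhb was at 117, 87.8 and 95.2 CPM in WT, at 103, 71.4 and 78.1 in LysM-DKO, and at 11.7 and 13.6 in ABCG1KO. The ABCG1KO libraries were far below the others, with 372 and 578 counts. The log2 fold change against WT was -2.98 (SE 0.224, edgeR adjusted p 0.000119), 12.6% of the WT level, and LysM-DKO was above ABCG1KO by 2.73 (SE 0.221, edgeR adjusted p 0.000204). Hadhb was called in all 15 alternatives that tested it, for either comparison. Counts of Hadhb relative to Hadha were 0.480 to 0.556 in WT, 0.470 to 0.534 in LysM-DKO, and 0.0795 and 0.0757 in ABCG1KO.

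Most of Hadhb has a near copy elsewhere in the genome. Of the 50-base windows of its principal transcript, 62.4% recur in another gene, and 90.4% of those in the coding sequence do. The main partner is Gm13910, a processed pseudogene at chr2:108948806-108950233 (GRCm38) that has no row in the count tables. Over the 1428 coding bases the 2 differ at 3, an identity of 99.8%, and the longest identical run is 685 bases. A 90-base stretch, coding positions 699 to 788 counted from the A of the start codon, shows 1 of the 3 differences in capitals (GENCODE M21 transcripts, coding strand).
Hadhb: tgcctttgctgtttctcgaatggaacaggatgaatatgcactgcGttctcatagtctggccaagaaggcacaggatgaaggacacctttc
Gm13910: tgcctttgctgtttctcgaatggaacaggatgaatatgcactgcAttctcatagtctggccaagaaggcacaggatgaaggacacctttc

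A read within an identical stretch aligns to both loci, and such reads are not counted for either gene under the default setting of the counter. The setting used is not given in the sources used here. The shared windows of Hadhb are the same in all groups, and its low count in ABCG1KO stands beside the higher share of reads aligned to several places in those libraries. Whether handling of such reads differed between groups was not tested.

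The other enzymes of the cycle showed smaller differences. Echs1, the short-chain hydratase, was at 67.3 to 98.6 CPM in WT, 60.5 to 85.6 in LysM-DKO, and 129 and 89.6 in ABCG1KO. Hadh, which oxidises hydroxyacyl-CoA of shorter chains, was at 46.9 to 58.6, 47.8 to 51.8, and 53.9 and 45.4 CPM. Acaa2, the matrix thiolase, was at 63.4, 51.2 and 51.0 CPM in WT, at 49.4, 34.4 and 44.6 in LysM-DKO, and at 70.2 and 61.8 in ABCG1KO. LysM-DKO was lowest for Acaa2, below both other groups without overlap, and Echs1 and Hadh overlapped between WT and LysM-DKO. None of the 3 was called in any comparison.

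Auxiliary enzymes that let unsaturated chains into the cycle did not pass the test in any comparison. The isomerase Eci1 was at 11.6 to 16.5 CPM in WT, 15.6 to 18.5 in LysM-DKO, and 15.8 and 12.9 in ABCG1KO. Its relative Eci2 was at 28.8 to 29.5, 26.0 to 29.4, and 38.2 and 29.7 CPM, and the dienoyl-CoA reductase Decr1 at 31.1 to 33.1, 21.7 to 33.2, and 28.9 and 28.7 CPM. Decr1 in ABCG1KO lay below WT and Eci2 above it, each by a narrow gap.

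The electron transfer flavoprotein takes electrons from the acyl-CoA dehydrogenases and hands them to the respiratory chain through its own dehydrogenase, Etfdh. Its subunits Etfa and Etfb overlapped between WT and LysM-DKO. Etfa was at 56.8 to 75.0 CPM in WT and at 73.0 and 57.5 in ABCG1KO, and Etfb at 48.0 to 73.1 CPM and at 80.7 and 76.2. Etfdh was at 41.1 to 46.1 CPM in WT, 37.9 to 48.0 in LysM-DKO, and 26.6 and 35.7 in ABCG1KO, with both ABCG1KO libraries lowest. None was called. In the annotation, 58.2% of the exon length of Etfb lies within other genes on its own strand, Gm45233 and Mir7051, so that its level is uncertain.

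In peroxisomes, oxidation opens with an acyl-CoA oxidase, goes through a bifunctional enzyme and ends with a thiolase. All 7 peroxisomal members had a log2 fold change below 0 in LysM-DKO (median -0.25, beside 0.02 for all genes). With library size only 6 of 7 did (median -0.10), and without LysM-DKO 3 also 6. In that comparison 0 were called by edgeR, beside 0.0362% of all genes, and 0 by DESeq2. At an unadjusted p under 0.05 there were 2, beside 11.7% of all genes. In ABCG1KO, 3 fell and 0 rose, beside 8.83% and 7.21% of all genes (median -0.55, beside 0.01). Only 1 fell, Scp2, with library size only, with the replicate block, with both groups alone, or without WT 2, WT 3 or LysM-DKO 2. Acox3, an oxidase for branched chains, was at 189, 207 and 260 CPM in WT, at 208, 190 and 170 in LysM-DKO, and at 120 and 145 in ABCG1KO. Both ABCG1KO libraries were lowest. Acox3 fell there by 0.73 in log2 (SE 0.184, edgeR adjusted p 0.0333). Leaving out WT 2, WT 3, LysM-DKO 2, ABCG1KO 1 or ABCG1KO 2 ended the call (edgeR adjusted p 0.0513 to 0.167), as did library size only, the replicate block and both groups alone.

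Abcd3, which carries acyl-CoA into peroxisomes, was at 85.6, 90.5 and 92.4 CPM in WT, at 94.7, 74.0 and 83.8 in LysM-DKO, and at 54.7 and 67.4 in ABCG1KO. It fell in ABCG1KO by 0.55 in log2 (SE 0.153, edgeR adjusted p 0.0444). That call did not survive leaving out any library but ABCG1KO 2 (edgeR adjusted p 0.0536 to 0.227), nor RLE scaling (0.0503), library size only, no filter, the replicate block or both groups alone. Abcd2, a related carrier, was at 36.2 to 57.3 CPM in WT, 31.2 to 40.1 in LysM-DKO, and 43.4 and 65.8 in ABCG1KO. WT overlapped both genotypes, LysM-DKO lay below ABCG1KO, and no comparison was called. Hsd17b4 was at 150 to 177 CPM in WT, 131 to 145 in LysM-DKO, and 133 and 154 in ABCG1KO, with LysM-DKO below WT and no call. Ehhadh, the other bifunctional enzyme, was at 5.28 to 6.82, 3.67 to 6.58, and 2.85 and 3.25 CPM, with both ABCG1KO libraries lowest (edgeR adjusted p 0.0842).

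Scp2 encodes a peroxisomal thiolase for branched chains and, from a second start, the sterol carrier protein. It was at 174, 147 and 168 CPM in WT, at 135, 117 and 135 in LysM-DKO, and at 73.0 and 63.3 in ABCG1KO. The groups were in that order with no overlap. In LysM-DKO the log2 fold change was -0.34 (SE 0.127, unadjusted p 0.0267, edgeR adjusted p 0.383), not past the threshold. In ABCG1KO it was -1.26 against WT (SE 0.148, edgeR adjusted p 0.00131), and LysM-DKO was above ABCG1KO by 0.92 (SE 0.146, edgeR adjusted p 0.00703). These 2 calls held in all 15 alternatives that tested Scp2. Of its principal transcript, 41.4% of the windows recur elsewhere, mostly in Scp2-ps2, a transcribed pseudogene at chr9:123306600-123317998 (GRCm38) with no row in the count tables. The coding part they share is 478 bases with 3 differences, and a 90-base stretch, coding positions 1359 to 1448 of Scp2, shows 1 of them in capitals (GENCODE M21, coding strand).
Scp2: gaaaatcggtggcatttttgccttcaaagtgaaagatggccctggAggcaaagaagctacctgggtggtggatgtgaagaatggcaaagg
Scp2-ps2: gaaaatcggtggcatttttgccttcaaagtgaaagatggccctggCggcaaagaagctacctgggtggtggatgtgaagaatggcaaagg

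Acaa1a, the peroxisomal thiolase for straight chains, was at 95.1, 85 and 90.2 CPM in WT, at 69.0, 65.3 and 67.7 in LysM-DKO, and at 109.8 and 77 in ABCG1KO. The LysM-DKO libraries were closely grouped and below all others. The log2 fold change against WT was -0.42 (SE 0.145, unadjusted p 0.0190, edgeR adjusted p 0.355) and did not pass. Acaa1a shares 34.0% of the windows of its principal transcript with its paralog Acaa1b, which had at most 25 counts in any library.

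Acyl-CoA thioesterases release free fatty acids from acyl-CoA. Acot2, the mitochondrial form, was at 12.98, 10.05 and 12.99 CPM in WT, at 13.9, 12.8 and 12.2 in LysM-DKO, and at 2.6 and 5.54 in ABCG1KO. It fell in ABCG1KO by 1.56 in log2 (SE 0.331, edgeR adjusted p 0.0183), and LysM-DKO exceeded ABCG1KO by 1.67 (SE 0.332, edgeR adjusted p 0.0168). The first call was lost without WT 1, WT 3 or ABCG1KO 1 (edgeR adjusted p 0.0501, 0.0504 and 0.0564), the other without LysM-DKO 1 or ABCG1KO 1 (0.0503 and 0.0576), and both with the replicate block or with both groups alone. Acot1, the cytosolic form from the neighbouring gene, was at 1.76 to 2.32 CPM in WT, at 0.654, 0.487 and 2.37 in LysM-DKO, and at 0.847 and 1.39 in ABCG1KO. LysM-DKO 3 stood above the WT libraries and apart from the other 2 of its group.

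These 2 thioesterase genes are tandem copies on chromosome 12 (Acot2 at chr12:83987861-83993873 and Acot1 at chr12:84009490-84018371, GRCm38). Over 1260 coding bases they differ at 65, an identity of 94.8%, and 27.7% of the windows of Acot2 and 33.6% of those of Acot1 recur in another gene. Coding positions 1115 to 1204 of Acot1 are shown with the matching stretch of Acot2, with the 5 differences in capitals, because reads of the 2 genes can be told apart only where they cover a difference (GENCODE M21, coding strand).
Acot1: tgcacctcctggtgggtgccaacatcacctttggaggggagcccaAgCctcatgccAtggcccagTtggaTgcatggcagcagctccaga
Acot2: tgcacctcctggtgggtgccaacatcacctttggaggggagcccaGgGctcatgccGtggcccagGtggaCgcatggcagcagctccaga

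Acot7, a cytosolic thioesterase, ranged from 13.2 to 24.1 CPM in WT, 11.2 to 26.2 in LysM-DKO, and was at 18.7 and 42.9 CPM in ABCG1KO. Acot13 was at 23.9 to 25.6, 16.6 to 28.5, and 17.2 and 11.8 CPM. Neither was called, although the Acot13 values in ABCG1KO lay below WT (edgeR adjusted p 0.0810).

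Among regulators, all 4 that were tested had a log2 fold change above 0 in ABCG1KO, 3 of them called (7.21% of all genes rose). In LysM-DKO 0 were called by edgeR, beside 0.0362% of all genes, and 0 by DESeq2. At an unadjusted p under 0.05 there were 0 of the 4, beside 11.7% of all genes. Ucp2 was at 974, 780 and 974 CPM in WT, at 722, 707 and 895 in LysM-DKO, and at 1690 and 1567 in ABCG1KO. Both ABCG1KO libraries were well above the rest, and WT overlapped LysM-DKO. Ucp2 rose by 0.84 in log2 over WT (SE 0.182, edgeR adjusted p 0.0193), 1.79-fold, a call lost without WT 2 (0.0675) or ABCG1KO 1 (0.1004). LysM-DKO was below ABCG1KO by -1.07 (SE 0.182, edgeR adjusted p 0.00871), lost without ABCG1KO 1 (0.0583). The opposite-strand neighbour Dnajb13, which overlaps 4.36% of the exon length of Ucp2, had 1458 and 285 counts in ABCG1KO and 64 to 89 elsewhere, beside 53914 and 66457 counts of Ucp2 in ABCG1KO.

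Ppard encodes the PPAR that is widely expressed, macrophages included, and Ppargc1b a coactivator of mitochondrial and oxidation genes. Ppard was at 38.1, 44.9 and 47.6 CPM in WT, at 48.3, 53.2 and 40.0 in LysM-DKO, and at 64.9 and 68.1 in ABCG1KO. Ppargc1b was at 2.67, 4.06 and 3.78 CPM in WT, at 3.08, 3.14 and 4 in LysM-DKO, and at 6.96 and 8.02 in ABCG1KO. For both genes the ABCG1KO libraries were above all others, and WT and LysM-DKO overlapped. Ppard rose by 0.61 over WT in log2 (SE 0.159, edgeR adjusted p 0.0358), a call lost without any WT or ABCG1KO library (edgeR adjusted p 0.0590 to 0.111). Ppargc1b rose by 1.10 over WT (SE 0.313, edgeR adjusted p 0.0485), and LysM-DKO was below ABCG1KO by -1.14 (SE 0.313, edgeR adjusted p 0.0481). Leaving out any 1 library ended the Ppargc1b call over WT (edgeR adjusted p 0.0545 to 0.1496), and any but WT 1 the other (0.0618 to 0.140). The replicate block, both groups alone and the fits limited to genes with little shared sequence ended the Ppard and Ppargc1b calls too, as did no filter for Ppargc1b.

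Pdk4, a kinase that shuts pyruvate out of the citrate cycle when fat is burned, was near the limit of detection, with 12, 2 and 12 counts in WT, 8, 10 and 33 in LysM-DKO, and 25 and 61 in ABCG1KO. Both ABCG1KO libraries were above WT, and the difference was not past the threshold (edgeR adjusted p 0.1502). Ppara, the PPAR best known from liver, had at most 10 counts in any library, so that a difference was not detectable at this depth.

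LysM-DKO against ABCG1KO called 6 members of 34, beside 13.4% of all genes. Hadhb, Scp2 and Acot2 were higher in LysM-DKO (7.76% of all genes were), and Ucp2, Slc25a20 and Ppargc1b lower (5.64%). The median log2 fold change was -0.06, beside 0.03 for all genes. At an unadjusted p under 0.05 there were 16 members, beside 30.9% of all genes. LysM-DKO lay above ABCG1KO without overlap for 9 members (25.6% of all genes) and below for 11 (22.6%), together beside 48.2% of all genes. Without ABCG1KO 1 there were 2 calls, and without LysM-DKO 1 there were 3.

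Shared sequence and the size of the ABCG1KO difference were set side by side after Hadhb, Scp2 and Acot2, all partly duplicated, had been seen to have the 3 lowest log2 fold changes. The counts by class therefore restate that observation and are no test of it. Shared windows here include those of genes that overlap at the same locus, not only those of copies elsewhere. All shared windows of Etfb (with Gm45233) and Acadvl (with Dvl2) are of the overlapping kind. Among the 7 tested members with at least 20% of the principal transcript shared, 3 fell and 0 rose in ABCG1KO (median -0.91). Of the 27 with less, 5 fell and 3 rose (median -0.12), and of the 17 with none shared, 4 fell and 2 rose (median -0.15). The other 4 of the 7 were not called: the log2 fold change was 0.11 for Acadvl (24.0% shared), -0.91 for Acot1 (33.6%, with 27 and 59 counts in ABCG1KO), 0.05 for Acaa1a (35.1%) and 0.41 for Etfb (67.3%). Another measure was the share of windows over all transcripts of a gene, which also counts genes that overlap at the same locus. By it, 384 of 1948 tested genes with at least 15% shared fell in ABCG1KO and 125 rose. Among 7526 with under 1%, 474 fell and 578 rose. In LysM-DKO the 7 members had a median of -0.33 and the 27 of -0.18, with 0 calls.

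**Figure D4:**
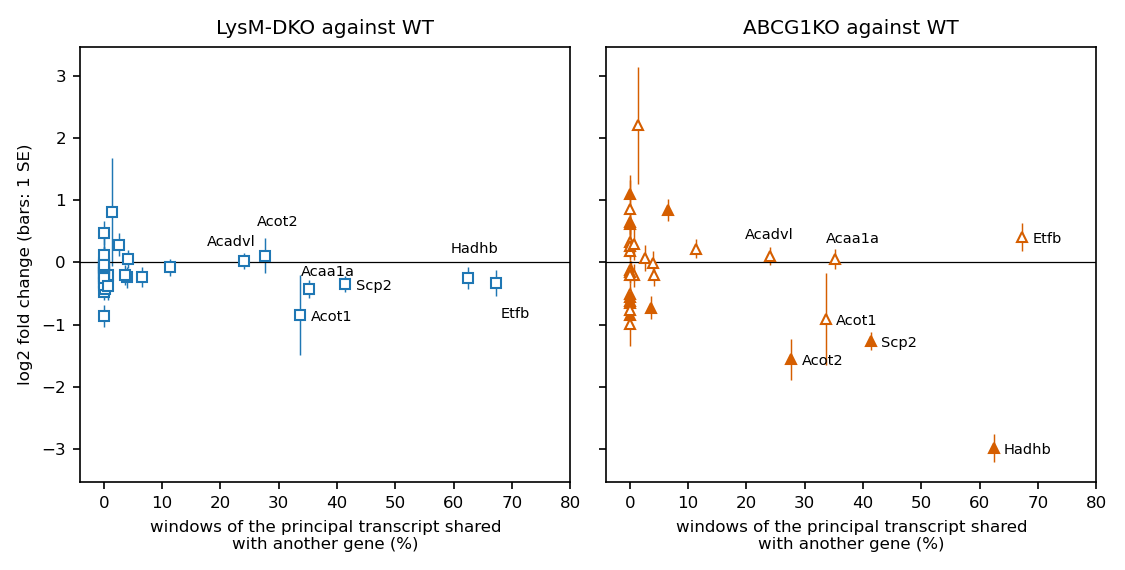
Log2 fold change against WT (bars of 1 SE) by the percentage of 50-base windows of the principal transcript that recur in another gene, for the 34 tested members; filled symbols have an adjusted p under 0.05. In ABCG1KO, Acot2, Scp2 and Hadhb are the lowest points and lie at 27.7%, 41.4% and 62.4%. Etfb, at 67.3%, is not lower than WT, but its shared windows lie in Gm45233, which overlaps it at the same locus. Those of Acadvl lie in Dvl2, which overlaps it too. In LysM-DKO no symbol is filled.

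The rest of the pathway was read from further lists. Of 30 other oxidation genes, 26 were tested. In LysM-DKO 0 were called by edgeR or DESeq2, and 2 had an unadjusted p under 0.05, beside 11.7% of all genes. A log2 fold change below 0 was found for 20 (median -0.18), and for 15 with library size only. In ABCG1KO 10 fell and 1 rose (median -0.55), beside 8.83% and 7.21% of all genes and their median of 0.01. The number fallen was 3 with library size only, 4 with the replicate block and without WT 1 or LysM-DKO 2, 6 without LysM-DKO 1, 1 without WT 2 or WT 3, 2 without ABCG1KO 1 and 3 without ABCG1KO 2. Acot11, another thioesterase, fell by 1.69 in log2 (SE 0.313, edgeR adjusted p 0.0108), being at 19.2 to 29.9 CPM in WT and at 6.46 and 7.64 in ABCG1KO. The auxiliary reductase Decr2 fell by 0.76 and Phyh, which starts the breakdown of phytanic acid, by 0.68 (SE 0.175 and 0.164). Acat1, the mitochondrial acetoacetyl-CoA thiolase, was the gene that rose, by 0.66 (SE 0.152, edgeR adjusted p 0.0228).

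Of the genes that bring fatty acids to the cycle, 6 of 14 tested fell in ABCG1KO and 0 rose (median -0.88), beside 8.83% and 7.21% of all genes and their median of 0.01. The number fallen was 4 with library size only, 2 with the replicate block or without ABCG1KO 1, and 3 without any 1 of the WT libraries. Fabp5, a fatty acid binding protein, was at 1341 to 1830 CPM in WT, 698 to 1004 in LysM-DKO, and 429 and 437 in ABCG1KO, a fall of 1.84 in log2 (SE 0.228, edgeR adjusted p 0.00176). Mgll, which frees fatty acids from monoglycerides, was at 363 to 389 CPM in WT, 185 to 492 in LysM-DKO, and 2.07 and 13.7 in ABCG1KO, where it fell by 5.56 in log2 (SE 0.900, edgeR adjusted p 0.00756). Pnpla2, the lipase that opens triglyceride breakdown, fell by 1.25, the transporter Slc27a1 by 0.97 and Fabp4 by 1.19 (SE 0.251, 0.236 and 0.311). In LysM-DKO 0 of the 14 were called by edgeR and 1 by DESeq2, with 2 at an unadjusted p under 0.05, beside 11.7% of all genes (median -0.16).

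In the list of 18 PPAR regulators and targets outside the members, 3 fell and 1 rose in ABCG1KO, beside 8.83% and 7.21% of all genes, and 5 had an unadjusted p under 0.05, beside 31.5% (median -0.06, but 0.18 with library size only). The fallen were 1 without ABCG1KO 1 and 2 without WT 2 or ABCG1KO 2, and 2 rose without LysM-DKO 1 or with library size only. In LysM-DKO 0 were called by edgeR and 1 by DESeq2, with 4 at an unadjusted p under 0.05, beside 11.7% of all genes (median -0.15). Rxra, the partner of the PPARs on DNA, was at 151 to 181 CPM in WT, 201 to 237 in LysM-DKO, and 304 and 340 in ABCG1KO, a rise of 0.96 in log2 in ABCG1KO (SE 0.144, edgeR adjusted p 0.00450). Pparg, the PPAR of lipid storage, was at 74.2 to 106 CPM in WT and 25.6 and 28.6 in ABCG1KO, a fall of 1.74 (SE 0.350, edgeR adjusted p 0.0154). Plin2, a lipid droplet protein, fell by 1.14 (SE 0.238). The coactivator Ppargc1a had 32 to 78 counts in WT, 38 to 80 in LysM-DKO, and 1 and 0 in ABCG1KO, so that Ppargc1a and Ppargc1b, relatives in sequence and role, differed from WT in opposite directions.

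Promoter sequence from RefSeq (GRCm38.p6) was at hand for 28 members with 29 promoters, and the 250 bases before the start were searched. The nuclear receptor element AGGTCA, on either strand, occurred in the promoters of Acadm, Acadvl, Cpt1a, Echs1 and Scp2, 17.2% of the 29 promoters, beside 14.02% of all 32851 promoters. A direct repeat of it with 1 base between, the layout bound by PPARs, was in 0 of them and in 0.0335% of all promoters. The NRF1 motif was found for Etfdh and Ppara, beside 0.782% of all promoters. A match in this window is a description only.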

How the data were processed

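Total RNA from primary mouse macrophages was sequenced in 8 libraries. The deposited values are whole-number counts per gene symbol, 1 file per library, and CPM were computed here. Per the submitters' processing notes, the build was mm10 and the tools named were STAR 2.7.9a, TopHat, HTSeq 0.11.2, DESeq2 1.30.1 and limma, with no role given. The annotation and the strand setting are not given in the sources used here.

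Counts as deposited were fitted with edgeR 4.0.16 (R 4.3.3, limma 3.58.1) using TMM factors, filterByExpr (13821 of 24421 symbols kept) and robust quasi-likelihood. All 8 libraries entered 1 model with 5 residual degrees of freedom. Calls required a p-value, adjusted after Benjamini and Hochberg across the tested genes, under 0.05. The special lines of the counter stayed out of sizes and tests. CPM are counts over TMM-scaled library sizes. Levels per kb divide by the annotated exon length. A 0 is compatible with up to 3 counts. That limit reflects counting error alone, since the reads carry no molecular identifiers and are not independent molecules. DESeq2 1.42.0, other scalings and filters, the replicate block, each library left out and genes with little shared sequence were alternatives.

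Shared sequence was counted as 50-base windows of GENCODE M21 transcripts (GRCm38) that recur in another gene on either strand. That gene could be a copy elsewhere or overlap at the same locus. Of the symbols, 23376 matched this annotation by name, 677 by an older name and 368 did not match. The members and lists were chosen with earlier results of these data known. Every member may be named. A fold change with its test is given for members called in a comparison and, in LysM-DKO against WT, for those with an unadjusted p under 0.05. From each other list, up to 5 called genes, by adjusted p, are named. One such gene is not reported here. Names outside this rule were chosen after their values were seen.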

Additional observations from a re-analysis of the deposited data

How the results depend on the processing

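Hadhb and Scp2 kept their calls against WT and against LysM-DKO under the alternatives that tested them, and no called member's fold change changed sign in any alternative. With library size only, the median of the members was -0.055 in LysM-DKO against WT (all genes 0.17) and 0.11 in ABCG1KO against WT (all genes 0.25). DESeq2 called 1 member in LysM-DKO against WT, where all edgeR fits called 0. In ABCG1KO against WT, 11 calls became 5 with the replicate block, 4 with both groups alone, 4 among genes under 1% shared sequence and 5 under 5%, a limit chosen after seeing the data. In LysM-DKO against ABCG1KO, 6 became 3 with both groups alone, 0 under 1% shared sequence (Hadhb, Scp2, Acot2, Ucp2 and Slc25a20 were not tested there) and 1 under 5%. The share fits leave out members and test fewer genes, and the 2-group fits use fewer libraries.

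Leaving out each library gave 2 to 9 calls in ABCG1KO against WT and 2 to 6 in LysM-DKO against ABCG1KO, with 0 throughout in LysM-DKO against WT. The medians ranged from -0.27 to -0.13 in LysM-DKO against WT, -0.13 to -0.05 in ABCG1KO against WT and -0.17 to -0.019 in LysM-DKO against ABCG1KO. Where an arm kept 1 library, it was assumed to vary like the other groups. The same-numbered WT and LysM-DKO libraries had correlations of 0.04, 0.43 and -0.01 in their deviations from the group means, so the replicate numbers were not taken to pair samples. The replicate block left 0 members called in LysM-DKO against WT. Depth limits Ppara, Pdk4 and Acot1.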

Other observations

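The citrate cycle takes up the acetyl-CoA that fatty acid oxidation makes. All 16 enzymes of that list were tested and 0 were called in either genotype by edgeR, beside 0.0362% and 16% of all genes in LysM-DKO and ABCG1KO. At an unadjusted p under 0.05 there were 1 and 3, beside 11.7% and 31.5% of all genes, and the medians were -0.06 and -0.09 in log2. In LysM-DKO 12 of the 16 were below 0, and 5 lay below WT without overlap (9.98% of all genes) and 0 above (11%). DESeq2 called 0 as well. With library size only the medians turned to 0.09 and 0.15, where those of all genes were 0.17 and 0.25, and 2 were called higher in ABCG1KO, and with the replicate block 1 was. Their summed level was 1739 to 1998 CPM in WT, 1654 to 1810 in LysM-DKO, and 1751 and 1792 in ABCG1KO, so that the groups overlapped.

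Of 16 peroxisome biogenesis genes tested, 1 rose and 1 fell in ABCG1KO, a share under the 16% of all genes called. Pex5, the import receptor for matrix enzymes, rose by 0.60 in log2 (SE 0.129, edgeR adjusted p 0.0185), being at 37.8 to 41.7 CPM in WT and at 63.4 and 57.2 in ABCG1KO. Pex3, needed to form the peroxisomal membrane, fell by 0.63 (SE 0.182, edgeR adjusted p 0.0487), being at 16.6 to 19.9 CPM in WT and at 12.9 and 10.1 in ABCG1KO. The list gave 0 calls without WT 2, WT 3 or ABCG1KO 1, and with library size only 4 rose and 0 fell. In LysM-DKO 0 of the 16 were called by edgeR or DESeq2, and 0 had an unadjusted p under 0.05, beside 11.7% of all genes.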
